A study of Mus musculus with 2 samples.

Results

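The cytosolic ribosomal protein genes were examined in a list of RNA peaks from pull-down of the splicing factor Usp39. The cells were AML12, an established line of mouse hepatocytes. Members were the genes of the peak gene table whose symbol starts with Rpl or Rps and a digit, or is Rpsa, Rplp0, Rplp1 or Rplp2, without Rps6k kinases, pseudogenes and Rik names. This gave 57 genes (1.14% of the gene table) and 209 peaks (0.581% of the list). They were 29 genes of the large ribosomal subunit, 24 genes of the small subunit and 4 paralogs (Rpl36al, Rpl37rt, Rps27l and Rps27rt), of which Rpl37rt is annotated as a transcribed processed pseudogene.

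The study used RNA immunoprecipitation with sequencing to find where Usp39 lies on nuclear RNA. There was 1 immunoprecipitate (IP) library, pulled down with anti-FLAG beads, and 1 Input library without antibody. Cells of both groups were of the AML12 line, grown with dexamethasone, and carried a vector for FLAG-Usp39 that doxycycline had switched on for 72 h, so the tagged protein was overexpressed in Input and IP alike. RNA of both came from nuclear pellets after fixation in paraformaldehyde (5 min). The values are 1 pooled list of peaks, each with a position on the mm10 genome, a p-value and the name of a gene, and no value belongs to either library alone. No source used here says whether Input entered the peak calls, so a peak cannot be read as enrichment over Input.

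The list runs over the chromosomes in 2 passes of 17990 peaks each, and no source used here says what the passes stand for. The member peaks fell as 102 in the first pass and 107 in the second. Genes on the plus strand (29 members) had 53 and 56 of them, and genes on the minus strand (28 members) had 49 and 51, so the passes did not divide the members by strand. Depth is unknown, the labels give 1 library per group, and no test between groups was possible. Shares below are given with 95% intervals that cover counting error only. A peak that appears in both passes is counted in each, which makes these intervals too narrow. Expression of the genes in these cells was not measured in the files, so how much RNA of a gene was there to be pulled down cannot be told apart from how strongly it was held. Of 10 hepatocyte markers 2 had peaks, Krt8 with 14 and Krt18 with 16, both keratins of simple epithelia, and Alb, Apoa1, Apob, Apoe, Ttr, Trf, Serpina1a and Hnf4a had none. Of 7 mesenchymal markers 2 had named peaks (Vim with 8 and Ccn2 with 2), and by position 16 peaks lay over Ccn2. Both shares lay near the 20.4% of all coding genes with a named peak, so the counts set neither list apart.

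Ribosomal proteins clothe the ribosomal RNA of the large subunit, which joins amino acids, and of the small subunit, which reads the messenger RNA. Their genes are short, are transcribed in nearly every cell at high rates, and have several short exons. Their messengers begin with a terminal oligopyrimidine (TOP) tract that couples their translation to growth signals. Many also carry small nucleolar RNAs (snoRNAs), guides for the chemical marking of ribosomal RNA, inside their introns, where these are released as the intron is spliced out and trimmed. Usp39 is a component of the tri-snRNP, which joins the spliceosome while an intron is still in place.

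Many of the strongest member peaks lay on internal exons together with the edges of the introns beside them. The bins below are shown for that reason. Each was called with the same borders in both passes, with p-values of 1e-05 or less, and holds no untranslated exon base of the principal transcript. Sequences are those of the RefSeq copy of the mouse genome (GRCm38.p6, the build of mm10), on the strand of the gene. Coding exon bases of the principal transcript are in capitals and its intron bases in lower case. In the Rpl4 bin, 177 bases lie in exons when all annotated transcripts are counted.
Rpl35 exon 3, chr2:39004101-39004200, minus strand: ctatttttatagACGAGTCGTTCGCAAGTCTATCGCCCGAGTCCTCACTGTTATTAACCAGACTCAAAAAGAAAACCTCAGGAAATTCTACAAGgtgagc
Rpl4 exon 7, chr9:64177301-64177500, plus strand: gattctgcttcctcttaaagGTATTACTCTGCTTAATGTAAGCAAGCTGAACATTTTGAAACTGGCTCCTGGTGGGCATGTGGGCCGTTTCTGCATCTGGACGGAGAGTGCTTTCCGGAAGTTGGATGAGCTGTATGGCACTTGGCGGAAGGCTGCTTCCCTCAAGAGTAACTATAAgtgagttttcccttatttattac
Rpl8 exon 4, chr15:76904801-76904900, plus strand: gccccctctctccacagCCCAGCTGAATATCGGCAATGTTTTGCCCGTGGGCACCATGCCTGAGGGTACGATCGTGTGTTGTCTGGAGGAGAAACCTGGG
Rplp0 exons 4 and 5, chr5:115561101-115561400, plus strand: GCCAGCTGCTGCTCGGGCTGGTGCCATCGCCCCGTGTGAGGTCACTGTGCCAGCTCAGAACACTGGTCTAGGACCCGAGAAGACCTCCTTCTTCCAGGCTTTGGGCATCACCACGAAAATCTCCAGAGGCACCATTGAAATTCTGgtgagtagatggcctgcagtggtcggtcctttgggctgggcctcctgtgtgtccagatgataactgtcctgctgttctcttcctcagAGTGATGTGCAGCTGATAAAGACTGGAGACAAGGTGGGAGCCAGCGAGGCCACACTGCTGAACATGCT
Rps15a exon 3, chr7:118114801-118114900, minus strand: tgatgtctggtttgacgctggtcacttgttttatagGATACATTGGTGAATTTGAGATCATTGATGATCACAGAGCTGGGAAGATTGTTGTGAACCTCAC

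The Rpl35 bin held 82 exon bases and 18 intron bases, with intron on both sides of the exon. It had the smallest p-value in the list, 5.23872e-15, in both passes. The Rpl4 bin, with 157 exon bases and 43 intron bases, and the Rpl8 bin, with 83 and 17, also had this value in both passes. Rplp0, the base of the stalk that recruits translation factors to the ribosome, had a peak of 300 bases over 2 exons and all of the intron between them, with p-values of 5.38795e-15 in the first pass and 6.45994e-12 in the second. The Rps15a bin reached 36 bases into the intron before exon 3 and had p-values of 1.02522e-08 and 5.23872e-15.

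The core ribosomal protein genes are the 46 of the large and 31 of the small subunit, paralogs and fusion genes outside the symbol rule left out. A named peak was present for 53 of the 77 (68.8%, exact interval 57.3 to 78.9%), against 20.4% of all annotated protein-coding genes (4504 of 22028). With peaks of p 1e-05 or less, 46 of the 77 genes (59.7%) kept a named peak, against 7.13% of coding genes. When peaks were assigned by position, without the deposited names, 64 of the 77 genes (83.1%, 72.9 to 90.7%) were overlapped, against 19.0% of coding genes. The median length of the core genes was 3.29 kb, against 17.3 kb for all coding genes, so the higher shares did not come with longer genes. Small subunit genes were named in 24 of 31 cases (77.4%) and overlapped in 29, and large subunit genes were named in 29 of 46 cases (63.0%) and overlapped in 35, and the intervals of the named shares, 58.9 to 90.4% for the small and 47.5 to 76.8% for the large subunit, overlapped.

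Of the other parts of the translation machinery, mitochondrial ribosomal proteins lay below the core genes. The intervals of translation factors and of other TOP genes included the core share of 68.8%. Mitochondrial ribosomal proteins, which serve the separate ribosome of that organelle, had a named peak in 12 of 78 genes (15.4%, 8.21 to 25.3%), and 3 of the genes had one of p 1e-05 or less. Translation factors had one in 23 of 37 genes (62.2%, 44.8 to 77.5%), among them Eef1a1 with 8, Eef2 with 10 and Eif4g2 with 26 peaks. Of 11 other genes with TOP messengers 10 had a named peak (90.9%, 58.7 to 99.8%), including Tpt1 with 7, Pabpc1 with 16 and Hnrnpa1 with 17. Fau, which encodes a ribosomal protein fused to a ubiquitin-like protein and falls outside the symbol rule, had 5 peaks, with 5.23872e-15 as the smallest p-value. The median strength of the peaks, the −log10 of the p-value, was 5.4 for core ribosomal protein genes, 3.28 for mitochondrial ribosomal proteins, 4.04 for translation factors and 4.37 for the other TOP genes.

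Members had strong peaks, in numbers near those of other genes. The median number was 2 per member and 3 per named core gene, against 3 per gene in the whole table. Of the members 15 (26.3%) had 1 peak, against 26.2% of the table. The median strength was 5.4 (order-statistic interval 4.7 to 6.79), against 3.68 (3.63 to 3.7) over the whole list. Of the 209 member peaks 115 (55.0%, Wilson interval 48.2 to 61.6%) had a p-value of 1e-05 or less, against 14.4% of the list. The smallest p-value of the list, which 385 peaks share and which therefore gives no order among them, was held by 39 member peaks (18.7%, 14.0 to 24.5%), against 1.07% of the list. Such a peak was named for 24 members, and those named for Rps29 lay outside that gene. Member peaks were less often narrow, with 143 (68.4%) of 1 bin of 100 bases, against 78.5% of the list. Among peaks of 1 bin alone the median strength was 6.12 in members, against 3.42 in the list. The 9 members with no named peak of p 1e-05 or less were Rpl12, Rpl32, Rpl36al, Rpl37, Rpl39, Rpl7a, Rps12, Rps19 and Rps27l. By position, peaks that carried snoRNA names reached 5.23872e-15 over Rpl12 and Rpl32 and 3.26219e-07 over Rpl39.

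**Figure D1:**
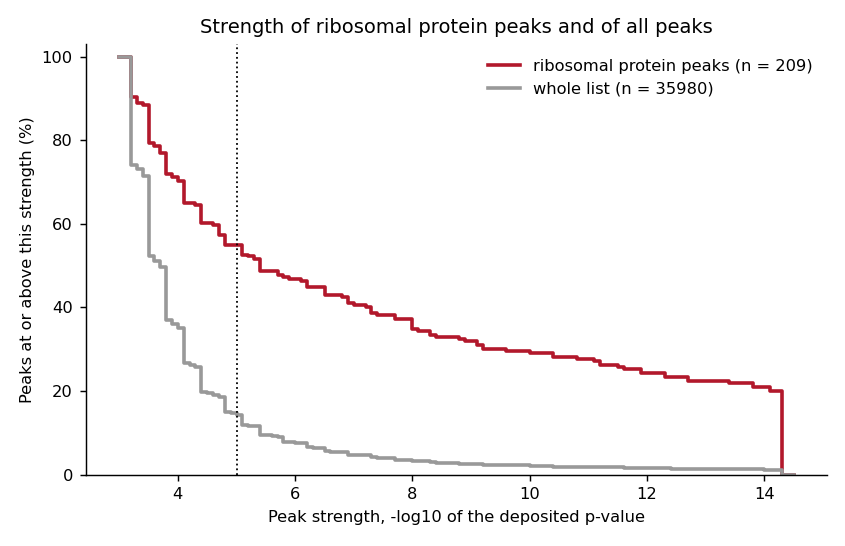
Share of peaks (y axis, percent) at or above each peak strength (x axis, −log10 of the deposited p-value) for the 209 ribosomal protein peaks (red) and all peaks of the list (grey), with a dotted line at a p-value of 1e-05. At that line the shares are 55.0% and 14.4%, and the steep drop at the right end is the shared smallest p-value.

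The peaks joined into 131 sites when overlapping or touching ones were merged, and 74 of these (56.5%) had peaks from both passes, against 46.5% of 22744 sites over the whole list. In 33 cases the borders were the same in both passes. The p-values of such pairs could lie far apart: the bin on Rpl5 exon 6 had 5.23872e-15 in the first pass and 0.000736488 in the second, the bin on Rplp1 exon 1 had 0.000736488 and 5.23872e-15, and the bin on Rpl27 exon 3 had 1.38616e-07 and 5.30833e-15. The bins with the smallest p-value in both passes were named for Rpl28, Rpl35, Rpl4, Rpl8 and Rps29, and the Rps29 bin lay outside that gene.

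Among large subunit genes, Rpl4, whose protein lines the tunnel through which the new chain leaves, had 8 named peaks. They formed 4 sites on exons 6, 7, 8 and 9, each found in both passes and each reaching from exon into intron. The p-values were 7.15818e-10 and 1.93694e-11 on exon 6, 5.23872e-15 in both passes on exon 7, 9.76495e-15 and 5.23872e-15 on exon 8, and 2.14718e-05 and 4.53837e-05 on exon 9. Exon 9 was thus the weakest of the 4. Rpl8, a protein next to the peptidyl transferase centre, had 7 peaks, among them the only member peaks wider than 300 bases. These covered 500 bases in the first pass, with a p-value of 7.98325e-07, and 400 bases in the second, with 4.70292e-05, over exons 2 and 3. They were weaker than its bins on exon 4 and, in the second pass, exon 6, all at 5.23872e-15.

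Rpl7, which contacts several ribosomal RNA helices, had 7 peaks, and all 7 passed p 1e-05. They lay on exons 2, 3, 5, 6 and 7, with the smallest p-value on exons 5 and 6. Rpl28 had 4 peaks in 2 sites, on exon 2 at 5.23872e-15 in both passes and on exon 4 at 5.12613e-09 and 3.88734e-12. Rpl18 had 6 peaks in 3 sites on exons 2, 4 and 5. Its p-values on exon 4 were 5.23872e-15 and 1.98676e-05. Rpl5, which binds the 5S ribosomal RNA on its way into the ribosome, also had 6 peaks, and 2 of these passed p 1e-05.

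Rpl10a, a protein of the L1 stalk near the exit site for transfer RNA, had the most peaks of the large subunit genes by deposited name. By position, 12 peaks lay over Rpl4 and 11 over Rpl3, against 9 over Rpl10a. Of the 10 peaks named for Rpl10a, 9 lay in the gene, and the median strength of the 10 was 3.58. Its strongest peaks were on exon 3 (4.17106e-08), exon 5 (2.04892e-13) and exon 6 (5.23872e-15), all in the second pass. Of the genes for the stalk that recruits translation factors, Rplp0 had 4 named peaks, all of p 1.41388e-09 or less. By position, 2 more lay over Rplp0 under the name Gcn1, at 0.000103992 and 5.23872e-15. Rplp1 had 4 peaks, the smallest at 5.23872e-15, and Rplp2 had 1, at 3.99162e-06.

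Rpl3, which shapes the peptidyl transferase centre, had 9 peaks, of which 4 held no exon base of the principal transcript. They formed a site in intron 3, with p-values of 5.36548e-06 and 9.94614e-06, and a site in intron 5, with 6.48397e-06 and 2.4663e-08. Both sites lie on exons of other annotated Rpl3 transcripts. In human cells, intron 3 of this gene is known for a splice variant, removed by nonsense-mediated decay, through which the protein limits its own production.

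Among small subunit genes, Rps13 led the list by name with 24 peaks, but 21 of these lay outside the gene, over the neighbouring gene Pik3c2a. The 3 peaks inside Rps13 had p-values of 1.74653e-09, on exon 4, and of 0.000376653 and 0.000736488, in introns of its principal transcript. Rps6, the target of the S6 kinases, had 9 peaks, of which 7 lay in the gene on exons 3, 4 and 5. Its last exon had 1.56667e-12 in the first pass and 5.23872e-15 in the second. Rps9 had 7 peaks, the smallest p-value being 4.78011e-11 on exon 2, and 2 of them lay in an intron at 0.000736488. Rps24, whose last exons are known for alternative splicing, had 6 peaks, with 5.23872e-15 on exons 2 and 3 in the first pass and 0.000736488 and 5.87583e-08 there in the second. Its 2 further peaks, at 0.000376653 and 0.000736488, lay in introns of the principal transcript on exons of other transcripts. Rps23, a protein of the decoding centre, had 4 peaks, and 2 of them had the smallest p-value.

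Rpsa, the small subunit protein also known as the laminin receptor, had 7 named peaks that divided by place. By position, 5 more peaks lay on its coding sequence under the name Snora62, with p-values from 6.01866e-15 to 0.000188117. Among the 7 named peaks, a bin on exon 4 had 9.40584e-05 in the first pass, where it was 200 bases wide, and 5.23872e-15 in the second. The other strong bin of the 7, with 5.23872e-15 in the first pass and 1.98676e-05 in the second, held no exon base of any Rpsa transcript. It covered the first 50 bases of Gm26448, a snoRNA gene of 203 bases inside an Rpsa intron, and is shown because it was the strongest peak inside a member without an exon base. In it, the bases of the snoRNA gene are in capitals.
Rpsa intron with Gm26448, chr9:120129301-120129400, plus strand: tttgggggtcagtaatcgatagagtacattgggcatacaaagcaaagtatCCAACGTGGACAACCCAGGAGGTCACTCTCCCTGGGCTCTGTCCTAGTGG

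**Figure D2:**
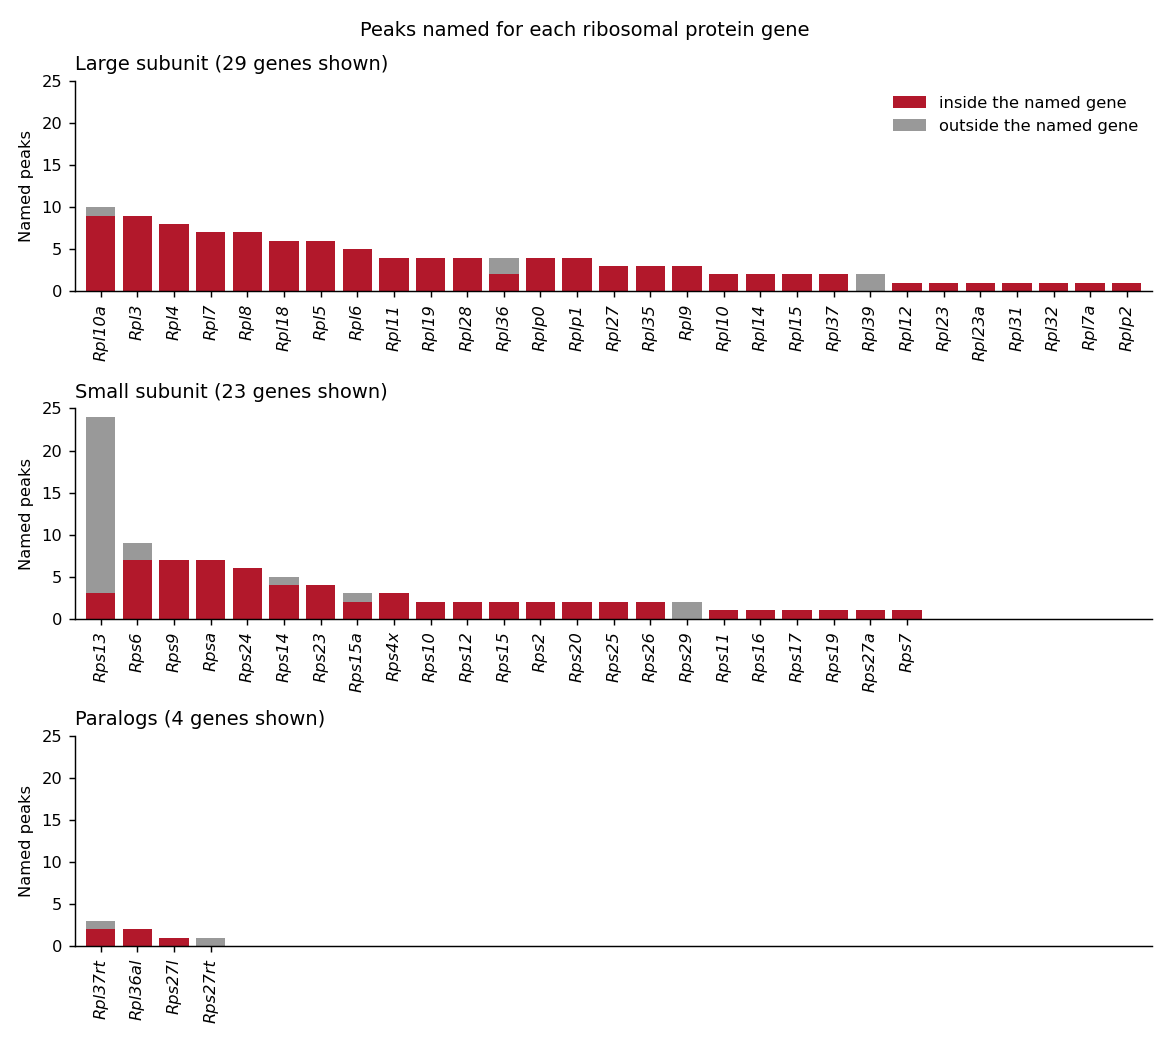
Number of peaks named for each member shown (y axis), with genes ordered by count within the large subunit (29 genes), the small subunit (23 genes) and the paralogs (4 genes). Red parts of a bar lie inside the named gene and grey parts outside it, and the tallest bar, Rps13 with 24 peaks, is grey for 21 of them.

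Inside the body of the named gene lay 175 member peaks (83.7%), against 73.5% of the whole list. The 34 others belonged to 10 members, and 47 members had every peak inside. For 3 members no named peak lay in the gene. The 2 Rps29 peaks, with 5.23872e-15 in both passes, were over Rn7s1, a gene for the 7SL RNA of the signal recognition particle, upstream of the start of Rps29. The 2 Rpl39 peaks, at 0.000376653 and 0.000188117, were over Upf3b. The peak named for Rps27rt, an intron-less gene on chromosome 9, lay on chromosome 3 in Rps27, with a p-value of 5.07568e-13.

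By the deposited location classes, 107 member peaks (51.2%, Wilson interval 44.5 to 57.9%) were exonic, against 24.0% of the list, and 14 (6.7%, 4.03 to 10.9%) were intronic, against 41.5%. The 3′ UTR class held 62 (29.7%, against 19.5%), the promoter class 20 (9.57%, against 3.3%), and no member peak was distal intergenic, against 8.73%. Exonic member peaks were the strongest class, with a median strength of 7.61, against 3.73 for exonic peaks of the whole list. The intronic class came from only 3 genes, Rps13, Rps14 and Rpl32, and 10 of its 14 peaks lay outside the named gene. The median strength of the class was 3.34, against 3.42 for intronic peaks of the list.

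Set against the gene models themselves, 169 of the 175 peaks inside members (96.6%) touched an annotated exon and 144 (82.3%) touched coding sequence of the principal transcript. The deposited 3′ UTR class was wider than the 3′ UTRs of the principal transcripts, since 37 of its 62 peaks touched coding sequence of the principal transcript, 23 touched its 3′ UTR, and 18 lay outside the gene. Of 21 peaks wholly in introns of the principal transcript, in 10 members, 18 touched an exon of another transcript of the gene. The 3 that touched none were the Rpl32 peak, at 0.000736488, and the pair over Gm26448 in Rpsa.

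Coverage along the transcripts showed the same weight on internal exons. In the 64 overlapped core genes, peaks covered 36.4% of coding sequence, 5.51% of intron bases, 3.25% of the 5′ UTR and 10.1% of the 3′ UTR. In the 4179 coding genes overlapped by a peak, peaks covered 8.59% of coding sequence, 0.842% of intron bases, 9.09% of the 5′ UTR and 10.03% of the 3′ UTR, the last close to the core genes. Since any peak covers more of a short gene, the 371 other overlapped coding genes of at most 5 kb were taken beside them, with a median length of 2.88 kb, against 3.24 kb for the overlapped core genes. There peaks covered 26.2% of coding sequence, 7.08% of intron bases, 11.6% of the 5′ UTR and 18.7% of the 3′ UTR. Internal exons were covered at 35.4% in core genes, 17.5% in the short genes and 6.84% in all. The first exons were covered at 2.73% in core genes, 20.1% in the short genes and 13.6% in all, so core genes had less under peaks in first than in internal exons, while both comparison sets had more. Both comparison sets hold genes without an intron, whose single exon was counted as a first or a last exon. How far this set their values for first and last exons was not tested. Last exons were covered at 17.0% in core genes, 24.7% in the short genes and 10.7% in all. Over all exons together, core genes (22.9%) and short genes (21.4%) lay close, against 9.19% in all.

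**Figure D3:**
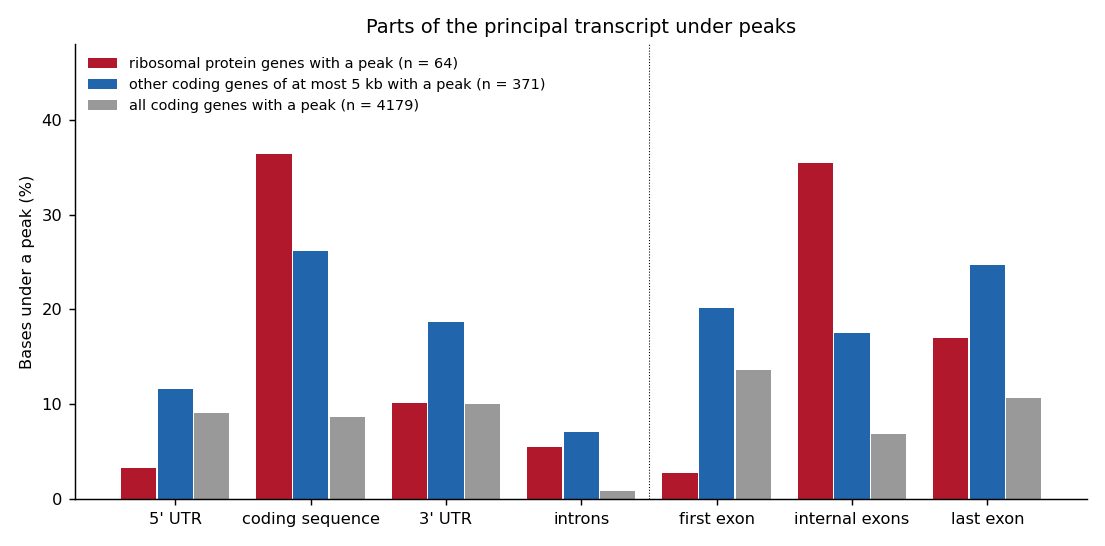
Percent of bases under a peak (y axis) in parts of the principal transcript (x axis), for ribosomal protein genes with a peak (red, 64 genes), other coding genes of at most 5 kb with a peak (blue, 371 genes) and all coding genes with a peak (grey, 4179 genes). The red bars stand highest in coding sequence (36.4%) and internal exons (35.4%) and lowest in the first exon (2.73%).

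Peaks in core genes mostly crossed from exon into intron. Of 241 peaks over the principal transcripts of core genes, 174 (72.2%, 66.2 to 77.5%) held both exon and intron bases, 44 (18.3%) held exon and no intron, and 23 (9.54%) were wholly intronic. In the short genes, peaks with both made up 21.9%, peaks with exon only 63.8% and wholly intronic peaks 14.3%. In all overlapped coding genes the shares were 11.1% with both, 35.4% with exon only and 53.5% wholly intronic. Core genes have short internal exons (median 114 bases, the same in the short genes, and 124 bases in all), and a bin of 100 bases can hardly touch one without reaching its edge. The short genes had fewer introns, with 2.89 per gene, against 4.64 in core genes, and so fewer exon edges that a peak could cross. Both comparison sets also hold genes without an intron, and a peak over such a gene can only count as exon only. The shares therefore do not compare genes of like structure. How far exon length, intron number and genes without an intron set the shares was not tested. Coverage rose at the 3′ splice site, to 33.0% of 297 introns at 20 bases into the exon, against 13.8% at 50 bases before the end of the intron. In the short genes these values were 13.4% and 7.56%. At the 5′ splice site it was 25.3% at 50 bases before the intron and 10.8% at 50 bases into it, against 13.4% and 8.02% in the short genes.

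**Figure D4:**
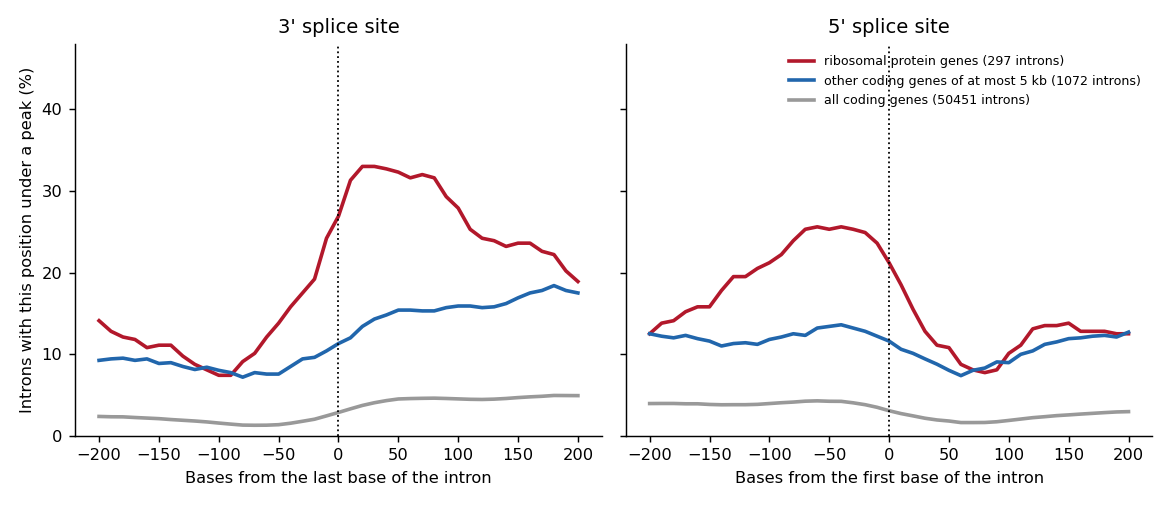
Percent of introns with a position under a peak (y axis) against the distance in bases from the 3′ splice site (left) and the 5′ splice site (right), for overlapped ribosomal protein genes (red, 297 introns), other short coding genes (blue, 1072 introns) and all coding genes (grey, 50451 introns). The red curve is high on the exon side of both sites, at 33.0% 20 bases after the intron's end, and falls on the intron side, to 7.41% at 100 bases before the intron's end.

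Part of the peaks over these genes carried the name of another gene. Of 246 peaks over core gene bodies, 170 carried the gene's own name and 76 (30.9%) another. Most of the others, 56 peaks in 18 genes, were named for a snoRNA, 6 for a microRNA, 1 for a further ribosomal protein and 13 for other genes. Of the 56 peaks with a snoRNA name, 6 (10.7%) touched a snoRNA gene and 96.4% touched an exon of the host. Over Rpl13, for example, 6 peaks were named Snord68 or Mir7079 and none Rpl13. The bin on its coding sequence named for Mir7079 had 1.75465e-06 in the first pass and 5.23872e-15 in the second. All 6 peaks over Rps3, a protein at the entry of the messenger channel, were named Snord15a or Snord15b, with p-values of 1.74576e-08 to 0.000103992, and all held coding bases. Rpl13a had 4 peaks under the names Snord34 and Snord35a, and Rps3a1 had 4 under Snord73a and Snord73b.

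Peaks over genes without a snoRNA carried other names too. Rpl41, which encodes one of the smallest known proteins, had 2 peaks named Zc3h10, at 5.23872e-15 and 5.84921e-07, and Rps28 had 1 named Kank3, at 5.23872e-15. In all, 13 core genes with no peak of their own name inside them were overlapped, among them Rpl13, Rpl13a, Rpl17, Rpl27a, Rpl39, Rpl41, Rps3, Rps3a1, Rps21, Rps27 and Rps28. By position, 60 core genes had a peak of p 1e-05 or less, and 31 had one at the smallest p-value.

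Most of the snoRNA genes themselves were not under peaks. No share of other snoRNA genes was taken beside this. Peaks covered only 5.51% of intron bases in the overlapped core genes, so the counts do not show that snoRNA genes were spared. The 30 core genes that host snoRNAs hold 58 annotated snoRNA genes, of which 7 (12.1%) were touched: Gm22077 and Snord83b in Rpl3, Snora70 in Rpl10, Snord68 in Rpl13, Snord42a in Rpl23a, and Gm24044 and Gm26448 in Rpsa. Host genes were overlapped in 28 of 30 cases (93.3%) and the genes without a snoRNA in 36 of 47 (76.6%). A peak of the gene's own name lay inside 66.7% of the host genes and 66.0% of the others.

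No peak lay over 13 core genes: Rpl21, Rpl22, Rpl24, Rpl26, Rpl29, Rpl30, Rpl34, Rpl35a, Rpl36a, Rpl37a, Rpl38, Rps18 and Rps29. Ribosomal protein genes have very many processed pseudogenes, intron-less copies of their messengers elsewhere in the genome, so the sequences of all peaks were searched with the coding sequences of the 77 core genes. This search was chosen after the data were seen. A match of at least 50 bases with at least 95% identity was found in 458 peaks, of which 174 lay in the gene itself and 284 elsewhere (0.789% of the list). Of the 284, 262 (92.3%) lay in an annotated pseudogene and 22 in genes annotated as coding. In 161 the matching stretch was identical to the coding sequence. No source used here says how reads that fit several places were handled, so reads of a gene and of its copies cannot be told apart.

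Of the 13 core genes with no peak, 11 had such matching peaks elsewhere, 65 in all, and only Rpl22 and Rps29 had none. Rpl21 had 14, all in pseudogenes at 7 places, with p-values down to 1.30409e-14. Rpl30, Rpl29 and Rpl35a had 10 each at 5 places each, and Rps18 had 8. Thus 75 of the 77 core genes had a peak over the gene or over sequence like it. For Rpl24 this rests on 1 matching peak, with 97.0% identity and a p-value of 0.000376653. Other coding genes were not searched in this way, so there is no share to set beside this count. Single bins from copies of 3 of these genes are printed to show how close the copies are, on the strand of the coding sequence, in lower case, with capitals where the copy differs from the coding sequence of the named gene.
Rpl30 copy in Rpl30-ps10, chrX:71803701-71803800, plus strand: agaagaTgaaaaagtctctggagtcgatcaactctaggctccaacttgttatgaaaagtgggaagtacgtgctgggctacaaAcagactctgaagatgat
Rps18 copy in Rps18-ps3, chr8:107262801-107262900, minus strand: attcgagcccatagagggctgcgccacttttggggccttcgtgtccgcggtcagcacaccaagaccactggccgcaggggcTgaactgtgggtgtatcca
Rpl21 copy in Gm10095, chr12:86846001-86846100, minus strand: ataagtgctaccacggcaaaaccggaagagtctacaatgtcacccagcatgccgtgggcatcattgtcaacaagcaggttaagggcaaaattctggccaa

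The Rpl30 copy differs at 2 of its 100 bases and had a p-value of 5.23872e-15, the Rps18 copy differs at 1 and had 9.76495e-15, and the Rpl21 copy at 0 and had 1.18034e-10. They were named in the list for Vma21, Nfat5 and Irf2bpl. Of all 284 matching peaks elsewhere, 2 carried the name of a member. The median strength of the 284 was 5.51, and 170 (59.9%) had a p-value of 1e-05 or less, close to the 55.0% of member peaks. Member peaks were chosen by name, and 34 of them lay outside the named gene. Of the 246 peaks over core gene bodies 66.7% had such a p-value, with a median strength of 6.79. The matching peaks elsewhere were wider than member peaks, with 47.5% of 1 bin, against 68.4%, and up to 800 bases. Of their 150 sites 125 (83.3%) had peaks from both passes, against 56.5% of member sites.

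A relation between the numbers over the gene and elsewhere was not tested. Rps2 had 2 peaks over the gene and 30 elsewhere, Rpl7a had 1 and 18, Rps6 had 7 and 14, and Rpl17 had 1 and 13. None lay elsewhere for Rpl4, with 12 over the gene, or for Rpl7, Rpl8 and Rps9, with 7 each. Of 300 pseudogenes with a ribosomal protein name in the annotation, 60 were touched by a peak (exact lower bound 15.6%), against 1.95% of 9654 processed pseudogenes with other names. Ribosomal protein copies without such a name, as Gm10095 is, are not among the 300 and may be counted in the 9654. The 1.95% is therefore not a share for copies of other genes alone. The gene table names 3 ribosomal protein pseudogenes (Rplp2-ps1, Rps18-ps4 and Rpl14-ps1), with 6 peaks in all.

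**Figure D5:**
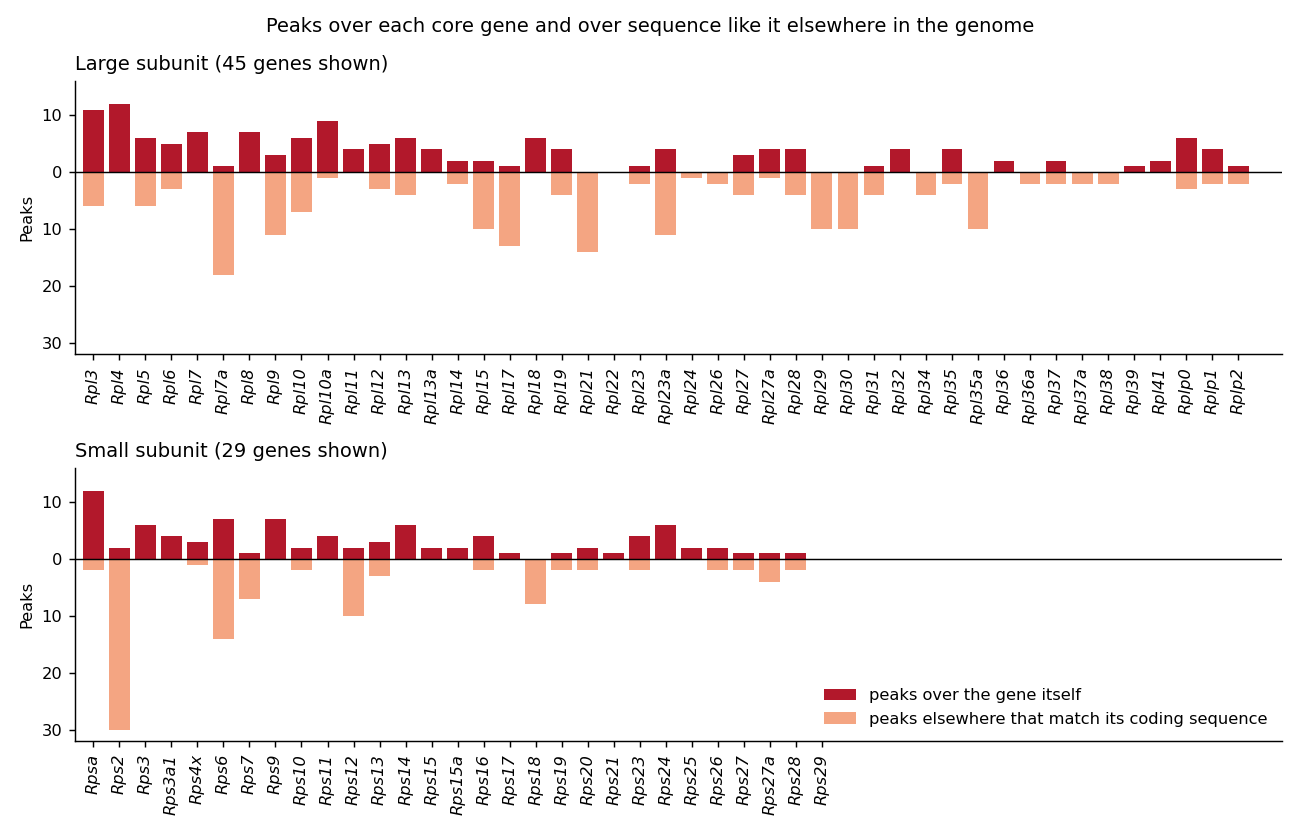
Number of peaks over each of 45 large and 29 small subunit genes (red, upward) and number of peaks elsewhere in the genome that match the coding sequence of the gene (orange, downward), with counts on the y axis and genes on the x axis. Rps2 has the longest downward bar (30), and Rpl21, Rpl29, Rpl30, Rpl35a and Rps18 are among the genes with downward bars only.

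Base composition and short motifs of member peaks lay near those of the list. The pooled GC content was 50.3% in member peaks, against 49.4% in the list. The hexamer GGCCAC, read on either strand, was in 26 of 209 member peaks (12.4%, 8.63 to 17.6%), against 9.62% of the list, and GCCATA in 10 (4.78%, 2.62 to 8.58%), against 4.45%. Both intervals include the share of the whole list.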

How the data were processed

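Per the methods and the labels, the authors trimmed reads with Trim Galore 0.6.1, checked them with FastQC 0.11.9, took out rRNA reads with Bowtie 1.2.3 and aligned the remainder to mm10 with HISAT2 (version not given in the sources used here). Peaks came from Piranha (p-value limit 0.001, bins of 100 bases) and were annotated with clusterProfiler, and HOMER is also listed in the submitters' processing notes. Whether Input entered the calls, how multiply mapped reads were treated and whether strand was kept were not stated. The authors deposited 35980 peaks and a table of 5004 genes, and their p-values were used as deposited, with no adjustment stated, as were positions, widths and peak numbers per gene. The columns name no sample, and depth is unknown.

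Members and gene lists were chosen with earlier results of these data known. Named in full were the members with the most peaks, the smallest p-values, the widest peaks, intronic peaks, a snoRNA under a peak or all peaks outside the gene, and some core genes without a named peak. The lists were large subunit, small subunit, paralogs, translation factors, other TOP genes, mitochondrial ribosomal proteins, ribosomal protein pseudogenes, hepatocyte and mesenchymal markers. Of the 9 paralogs with coding genes in the annotation, 3 had a named peak. Gene models were those of GENCODE M21, with 1 principal transcript per gene chosen by its APPRIS tag, then CCDS membership and transcript support. Shares have Wilson or exact binomial intervals (scipy 1.17.1), and copies were searched with blastn (BLAST+ 2.17.0). Alternatives were a p-value limit of 1e-05, at least 2 peaks, each pass alone, equal weight per member, no Rps13, joined sites, assignment by position, all genes of the symbol rule and own exon overlap. The restriction to peaks inside the named gene, the short genes of at most 5 kb and the copy search were chosen after seeing the data. Scripts were tested on simulated data. Some single genes are not reported here.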

Additional observations from a re-analysis of the deposited data

How the results depend on the processing

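Of 32 values under alternatives, 18 stayed inside the 95% interval of the value reported and 14 left it. The share of core genes with a named peak, 68.8%, became 51.9% with at least 2 named peaks and 83.1% by position. The exon share, 51.2%, became 65.2% with p of 1e-05 or less and 80.9% by own overlap with exons of any transcript. The intron share, 6.7%, became 0.87% with p of 1e-05 or less, 2.7% without Rps13, 2.78% by position, 3.82% with equal weight per member, 2.87% by own overlap and 2.29% with only peaks inside the named gene. The median strength, 5.4, became 11.0 with p of 1e-05 or less, by construction, 7.23 for joined sites, 6.86 by position and 7.16 with equal weight per member. The causes of the other changes were not tested. No paired analysis was possible because each group holds 1 library and the list is pooled. Without read counts, no peak could be set against Input or given an error of its own.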
